A study of Mus musculus with 41 samples.

Results

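Krt7, Krt8, Krt18, Krt19 and Epcam are the genes that mark simple, single-layered epithelium, and they were followed across 41 mouse mammary tumors. They were chosen by symbol, as 5 of the 47480 genes in the deposited table. Of the tumors 28 were Plk2-/-; p53-/- and 13 were p53-/-, all on the Balb/c background, so that every tumor lacked p53 and the groups differed in Plk2. To obtain Plk2-/-; p53-/- tumors, mammary epithelial cells of mice lacking both genes had been placed in fat pads of wild-type hosts from which the own epithelium was removed. The p53-/- tumors came from an existing bank of transplantable tumors. By the labels all were grown untreated after injection into the mammary gland of syngeneic hosts, while the study also describes sequencing of tumors that first arose, so that the passage of each tumor is not known here. The samples were bulk tumor, so host stroma was sequenced with the tumor cells, and fewer epithelial cells and less RNA per epithelial cell cannot be told apart in any value below. Tumors PLK2null-732, PLK2null-733, PLK2null-743 and p53null-T11 are claudin-low, a class the study assigned by clustering RNA. The other tumors are 25 Plk2-/-; p53-/- and 12 p53-/-, and are called the other tumors of their genotype.

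Keratins are the intermediate filament proteins of epithelial cells, and a filament needs a type II keratin paired with a type I keratin. Krt8 and Krt7 are type II, and Krt18 and Krt19 are type I. Krt8 and Krt18 are the pair that simple epithelia make first, while Krt7 and Krt19 are added in ducts. In the mammary gland the luminal cells carry these 4 keratins and the basal layer carries Krt5 and Krt14. Epcam is a membrane protein of epithelial cells that binds Cldn7 and serves adhesion and signaling. Claudin-low tumors are known for weak expression of epithelial adhesion genes.

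On GRCm38, the mm10 build, the GENCODE vM21 annotation places Krt7 at chr15:101411043-101430313 on the plus strand, Krt8 at chr15:101996698-102004482 on the minus strand and Krt18 at chr15:102028180-102032027 on the plus strand. Krt8 and Krt18, which pair in the filament, are thus divergent neighbors 23698 bases apart, although one is type II and the other type I. Krt19 lies at chr11:100140810-100148665 on the minus strand and Epcam at chr17:87635979-87651129 on the plus strand. Because the 5 genes were low together in some tumors, the 250 bases before each start site are shown for the 4 genes with an entry among the RefSeq promoters of GRCm38.p6 (Krt19 had none). Bases run 5′ to 3′ along the gene. Capitals mark CACCTG or its reverse complement CAGGTG, and GGGCGG or its reverse complement CCGCCC.

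Krt7, chr15:101412153-101412402, plus strand: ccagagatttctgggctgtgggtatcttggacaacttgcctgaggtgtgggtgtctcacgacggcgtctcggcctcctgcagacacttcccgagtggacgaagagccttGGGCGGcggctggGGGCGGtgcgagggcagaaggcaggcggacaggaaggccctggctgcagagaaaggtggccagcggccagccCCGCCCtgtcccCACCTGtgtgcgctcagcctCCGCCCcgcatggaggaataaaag
Krt8, chr15:102004343-102004592, minus strand: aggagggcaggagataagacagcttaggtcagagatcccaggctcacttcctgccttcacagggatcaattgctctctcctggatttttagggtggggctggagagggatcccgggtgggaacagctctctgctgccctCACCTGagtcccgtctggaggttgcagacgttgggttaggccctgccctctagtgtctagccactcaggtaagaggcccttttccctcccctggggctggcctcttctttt
Krt18, chr15:102027966-102028215, plus strand: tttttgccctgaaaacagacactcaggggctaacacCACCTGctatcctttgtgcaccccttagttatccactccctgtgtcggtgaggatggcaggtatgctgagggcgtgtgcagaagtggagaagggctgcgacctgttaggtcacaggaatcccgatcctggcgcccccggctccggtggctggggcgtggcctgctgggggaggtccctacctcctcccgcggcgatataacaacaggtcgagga
Epcam, chr17:87635729-87635978, plus strand: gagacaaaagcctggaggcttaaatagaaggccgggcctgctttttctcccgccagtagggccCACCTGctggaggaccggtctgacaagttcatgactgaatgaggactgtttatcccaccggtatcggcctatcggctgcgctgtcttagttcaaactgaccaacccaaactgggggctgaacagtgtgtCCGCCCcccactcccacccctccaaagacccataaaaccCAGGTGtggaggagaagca

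CACCTG, the letters of an E-box that zinc finger repressors such as Zeb1 are known to bind, was found in all 4 windows. Counted from the RefSeq starts, it began 44 bases before Krt7, 111 before Krt8, 214 before Krt18 and 187 before Epcam. Epcam had another on the opposite strand, 19 bases before the start. On either strand, CACCTG was found in 17.2% of 32851 promoter windows of this length. GGGCGG, the GC box, was found for Krt7 and Epcam and in 32.7% of all windows. The TATA box letters TATAAA were found in none of the 4 windows and in 12.4% of all windows. The AP-1 letters TGANTCA were likewise in none of the 4 and in 6.75%, and the grainyhead letters AACCGGTT in none of the 4 and in 0.116%. These are matches of letters, and nothing was measured about binding. GENCODE starts Krt8 and Krt18 inside these windows and Krt7 before its window. By GENCODE the CACCTG of Krt7 and of Krt8 thus lies within the gene and not before it.

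Values are given in deposited units, in which the upper quartile of each tumor is 1000. The low values of a tumor lie on steps that give the worth of 1 read, and by that step the tumors had 29409609 to 70868120 fragments on genes. The medians were 39053966 for Plk2-/-; p53-/- and 58042777 for p53-/- tumors. A floor of 3 reads came to 1.16 to 2.45 and covers counting error only. The title of each p53-/- library holds a numbered tag that no Plk2-/-; p53-/- title holds, so that a library batch and the genotype cannot be told apart, and no value within a batch could be had. Plk2 was 298 ± 149 (SD, n = 28) in Plk2-/-; p53-/- tumors and 3436 ± 2104 (SD, n = 13) in p53-/- tumors. The library labelled p53null-7435 had a Plk2 value of 186, inside the Plk2-/-; p53-/- range of 36.6 to 553.

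In the other tumors all 5 genes were abundant, and Krt18 led. Per kilobase of the longest coding transcript, the median over the 37 other tumors was 17050 for Krt18, 10566 for Krt8, 8352 for Epcam, 2375 for Krt19 and 1740 for Krt7. Krt18 was the highest of the 5 in 15 of 25 Plk2-/-; p53-/- and 8 of 12 p53-/- tumors. Krt7 was the lowest in 15 of 25 and 8 of 12, and Krt19 in 10 of 25 and 3 of 12. The per-kilobase ranges of neighbors in this order overlapped, so the order holds for medians and not for each tumor. Krt7 has 2 coding transcripts and Epcam has 4, of unequal length, and places in the order depend on the length used. Per kilobase of the median coding transcript, the median of Epcam was 12864, above Krt8, and that of Krt7 was 3008, above Krt19, while Krt18 still led.

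**Figure D1:**
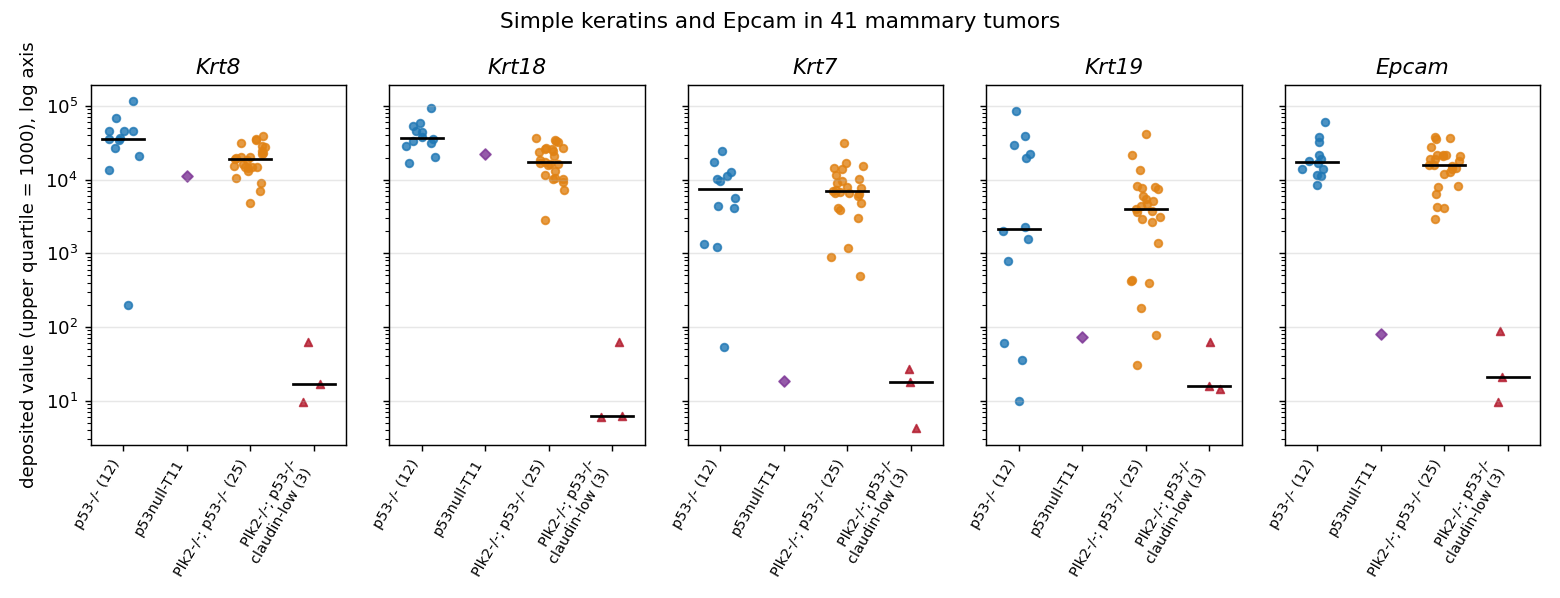
Deposited value (log axis, upper quartile of a tumor = 1000) of each gene, with 1 point per tumor and a bar at the median of each group of more than 1 tumor. The 3 Plk2-/-; p53-/- claudin-low tumors lie between 4.19 and 87.4 in all 5 genes, while p53null-T11 is low in Krt7, Krt19 and Epcam but at 11057 in Krt8 and 22508 in Krt18.

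Krt18 was lower in Plk2-/-; p53-/- tumors, and was the only 1 of the 5 genes to pass the test outside the claudin-low tumors. There, Plk2-/-; p53-/- tumors ran from 2832 (PLK2null-7763) through a median of 17406 to 37086 (PLK2null-1970). The p53-/- tumors ran from 16732 (p53null-5317) through 36322 to 95210 (p53null-2396R). The groups overlapped, but 11 of 25 Plk2-/-; p53-/- tumors lay below every p53-/- tumor, 6 of 12 p53-/- tumors lay above every Plk2-/-; p53-/- tumor, and 24 of 25 lay below the p53-/- median. The fitted difference was -1.15 ± 0.28 (SE) on the log2 scale, or 2.216-fold lower, with a 95% interval of -1.71 to -0.59 (limma, adjusted p = 0.000957). A permutation test over the same 37 tumors gave a 2-sided p of 0.000150. Over all 41 tumors the difference was -2.18 ± 0.92 and missed the threshold (limma, adjusted p = 0.0552), though not when PLK2null-1970 was left out (limma, adjusted p = 0.0493). The permutation test there gave p = 0.0230. p-values here measure the spread between tumors, some of which may be transplants of the same original tumor, a relation the labels do not give.

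For Krt8, the partner of Krt18, 1 tumor decided the test. Krt8 ran from 4837 (PLK2null-7763) through 18998 to 38600 (PLK2null-1973) in the other Plk2-/-; p53-/- tumors. In the other p53-/- tumors it ran from 198 (p53null-5317) through 36211 to 116097 (p53null-2396R). Of the 25 Plk2-/-; p53-/- tumors 24 lay below the p53-/- median, and 5 of 12 p53-/- tumors lay above all 25. With p53null-5317 in the fit, the difference was -0.46 ± 0.49 (SE) with an interval of -1.46 to 0.54 (limma, adjusted p = 0.474). Without that tumor it was -1.09 ± 0.27, or 2.13-fold lower, with an interval of -1.64 to -0.54 (limma, adjusted p = 0.00139). Leaving it out was chosen after seeing the data. Over all 41 tumors the difference was -1.40 ± 0.94 (limma, adjusted p = 0.246).

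Krt7, Krt19 and Epcam did not pass the test in either set of tumors. Krt7 had medians of 7123 and 7557 in the other Plk2-/-; p53-/- and p53-/- tumors, with ranges of 497 to 31205 and 53.1 to 24483. Its difference was 0.50 with an interval of -0.71 to 1.71 (limma, adjusted p = 0.527). It was -0.08 without p53null-5317. Epcam had medians of 15829 and 17536, with ranges of 2935 (PLK2null-1964) to 37964 (PLK2null-1985) and 8552 (p53null-2225L) to 61588 (p53null-2153L). Its difference was -0.39 with an interval of -1.04 to 0.26 (limma, adjusted p = 0.344), and 6 of 25 Plk2-/-; p53-/- tumors lay below all 12 p53-/- tumors. For Krt19 the spread within each genotype was so wide that the interval ran from -1.92 to 2.47 around a difference of 0.28 (limma, adjusted p = 0.858). In Plk2-/-; p53-/- tumors the intervals therefore reach from 1.64-fold lower to 3.26-fold higher for Krt7. For Krt19 they reach from 3.78-fold lower to 5.55-fold higher, and for Epcam from 2.05-fold lower to 1.20-fold higher.

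**Figure D2:**
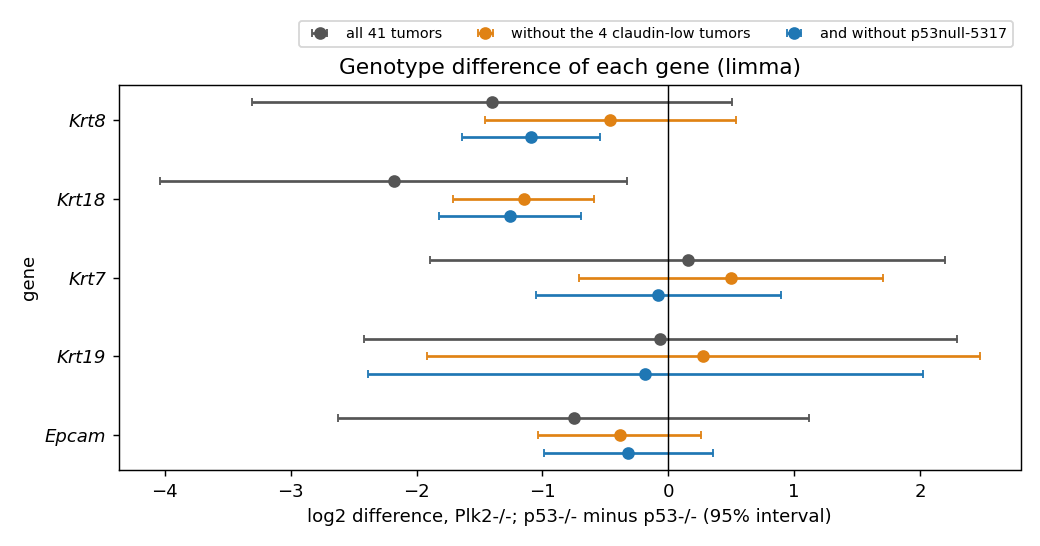
Log2 difference (Plk2-/-; p53-/- minus p53-/-) of each gene with its 95% interval from limma, over all 41 tumors, without the 4 claudin-low tumors, and without p53null-5317 as well. Krt18 lies below 0 in all 3 fits, and Krt8 moves from -0.46 to -1.09 when p53null-5317 is left out.

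These counts were read against the whole table. Over all 41 tumors, 39.5% of 17208 genes tested differed between the genotypes and 15.3% were lower in Plk2-/-; p53-/- tumors, whereas 0 of the 5 genes passed the limma test (1 of 5, Krt18, at an unadjusted p under 0.05). Without the claudin-low tumors 42.4% of 17080 genes differed and 17.4% were lower, whereas 1 of the 5, Krt18, passed. The balance of calls in the whole table moved with the scaling. With the deposited scaling 4175 genes were higher and 2627 lower in Plk2-/-; p53-/- tumors, with a median log2 difference of 0.10, and after rescaling by the TMM method (a trimmed mean of log ratios) 3032 were higher and 3906 lower, with a median of -0.07. Krt18 was lower under both, and its difference without claudin-low tumors was -1.30 after rescaling (limma, adjusted p = 0.000449).

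Genes that work beside the 5 were followed as lists. Of the basal and stratified keratins 7 of 11 were lower in Plk2-/-; p53-/- tumors over all 41 tumors, with a median of -2.30 against 0.10 for all genes tested. Krt5 had a log2 difference of -5.13 (limma, adjusted p = 0.00796) and Krt14 of -3.06 (limma, adjusted p = 0.0302). Without p53null-7435 the count was 6, and Krt14 no longer passed. Of 12 desmosome and keratin anchor genes tested, Evpl was lower and Dst and Tchp, which codes for a keratin-binding protein, were higher. Dsp, which ties keratin to desmosomes, had a difference of -1.02 (limma, adjusted p = 0.307). Jup, its plaque partner, had 0.0018 (limma, adjusted p = 0.995). Of 15 relatives, partners and proteases of Epcam, Cd9 was lower and Adam10 higher. Cldn7 had -0.93 (limma, adjusted p = 0.416). Among 14 epithelial transcription and splicing regulators 0 passed over all 41 tumors (1 at an unadjusted p under 0.05), with Grhl2 at -0.17 (limma, adjusted p = 0.880). Without the claudin-low tumors Grhl3, Elf3 and Ovol1 were among those that were lower.

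Further lists gave from 0 to 5 calls each over all 41 tumors, where 39.5% of all genes tested were called. Of 3 genes tested from the list of simple keratins outside the 5 genes, Krt80 was lower. Of 6 repressors of the epithelial state, Snai2 was lower and Zeb2 and Snai1 were higher, with Zeb1 at 0.97 (limma, adjusted p = 0.142). Of 7 intermediate filament genes outside the keratins, Lmna was lower, with Vim at -0.13 (limma, adjusted p = 0.779). Of 7 luminal regulators 0 passed (1 at an unadjusted p under 0.05). Among markers of other cell types, 4 of 6 skeletal muscle genes were lower and Ttn higher, 2 of 5 adipocyte genes were lower, Cd68 of the macrophage list and Wt1 of the mesothelium list were higher, and 0 of 6 endothelial, 6 fibroblast and 6 T cell genes passed (1 fibroblast gene at an unadjusted p under 0.05). Without p53null-7435, 1 skeletal muscle gene was lower, with Ttn higher, and 4 adipocyte genes were lower. The summed skeletal muscle markers ran from 32.1 to 3465 in Plk2-/-; p53-/- and from 42.5 to 39860 in p53-/- tumors, and the summed fibroblast markers from 12210 to 280437 and from 21474 to 250713. In the 37 tumors outside claudin-low, where Krt18 passed, 42.4% of all genes tested were called and 17.4% were lower in Plk2-/-; p53-/- tumors. There 2 of 6 T cell genes were lower. They were Cd3d (-1.52, limma, adjusted p = 0.0186) and Cd3g (-1.26, limma, adjusted p = 0.0361). The list median was -0.56, with Trac at 0.02. Of 6 endothelial genes 1, Esam, was lower (-0.89, limma, adjusted p = 0.0181), with a list median of 0.18. Pecam1, Cdh5, Kdr and Emcn lay at 0.07 to 0.33 and Tie1 at -0.35, and none of these passed. In the same 37, 4 skeletal muscle and 3 adipocyte genes and Upk1b of the mesothelium list were lower, Cd68 and Wt1 were higher, and 0 of 6 fibroblast genes passed (limma, 0 at an unadjusted p under 0.05). Summed T cell markers ran there from 29.2 to 1563 in Plk2-/-; p53-/- and from 19.8 to 586 in p53-/- tumors, with medians of 73.6 and 186. The part of these cell types in the Krt18 difference was not tested.

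In the 3 Plk2-/-; p53-/- claudin-low tumors all 5 genes were nearly lost. Krt8 was 63.0 in PLK2null-732, 16.8 in PLK2null-733 and 9.60 in PLK2null-743, and Krt18 was 61.6, 5.99 and 6.21 in the same order. Krt7 was 17.9, 4.19 and 26.5, and Krt19 was 61.6, 14.4 and 15.8. Epcam was 87.4, 20.97 and 9.60. PLK2null-732 was the highest of the 3 in every gene but Krt7. These values rest on 7 to 122 reads and are above the floor. The class was assigned from RNA of these same libraries, so the differences are given as a description with no test.

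Against the other 25 Plk2-/-; p53-/- tumors the mean log2 difference was -10.18 for Krt18, -9.61 for Krt8, -9.05 for Epcam, -8.80 for Krt7 and -6.63 for Krt19. The highest claudin-low value was 1.30% of the lowest other value for Krt8, 2.17% for Krt18, 2.98% for Epcam and 5.34% for Krt7. Those 4 genes did not overlap, against 8.87% of 17153 genes that lay lower in all 3 claudin-low tumors without overlap. Krt19 did overlap, because PLK2null-1986, which is not claudin-low, had only 29.98. The defining markers of epithelium were low with them. Cdh1, the cadherin of epithelial junctions, was 19.2 ± 14.8 (SD, n = 3) against 11146 ± 5415 (SD, n = 25), and Esrp1, Grhl2, Cldn3 and Cldn7 also did not overlap.

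Many genes that work beside the 5 were low in the same tumors, but not all. Of the listed genes with a mean of at least 10, all 14 epithelial regulators lay below all 25 other tumors. So did 8 of 12 desmosome and anchor genes, 8 of 15 Epcam relatives and partners, and 5 of 9 basal and stratified keratins. In the list of simple keratins outside the 5 genes 1 of 4 did, and 2 of 7 luminal regulators, against 8.87% of all genes tested. The luminal regulators had log2 differences of -7.24 (Prlr), -6.22 (Foxa1), -5.11 (Areg), -4.72 (Gata3), -4.18 (Pgr), -3.87 (Cited1) and -0.69 (Esr1). Krt222, placed in the list of simple keratins, was 48.9 against a mean of 5.47 and overlapped. Dsp was 23.9 against a mean of 5942, while Jup, which also serves junctions of other cells, stayed at 10736 against 8104. Of 6 repressors of the epithelial state only 1, Zeb1, lay above all 25, with 6040 ± 1143 (SD, n = 3) against 549 ± 561 (SD, n = 25). Twist1 and Twist2 had log2 differences of -1.53 and -1.90. Zeb2, Snai1 and Snai2 had 1.11, 0.35 and 1.21, and all of these genes but Zeb1 overlapped. Vim, the filament protein of mesenchymal cells, was 60709 ± 14055 against 16452 ± 11089 and overlapped. Markers of endothelium stood above all 25 in 6 of 6 genes. The share of all genes that lay above all 25 is not given, so these upward counts cannot be weighed against it. The summed endothelial markers were 165585 to 186496 in the claudin-low tumors, 2572 to 78025 in the other Plk2-/-; p53-/- tumors and 6876 in p53null-T11. Fabp4, listed for adipocytes and also made by capillary endothelium, was 109046 against 2873. The part of endothelial RNA in the low keratin and Epcam values was not tested.

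**Figure D3:**
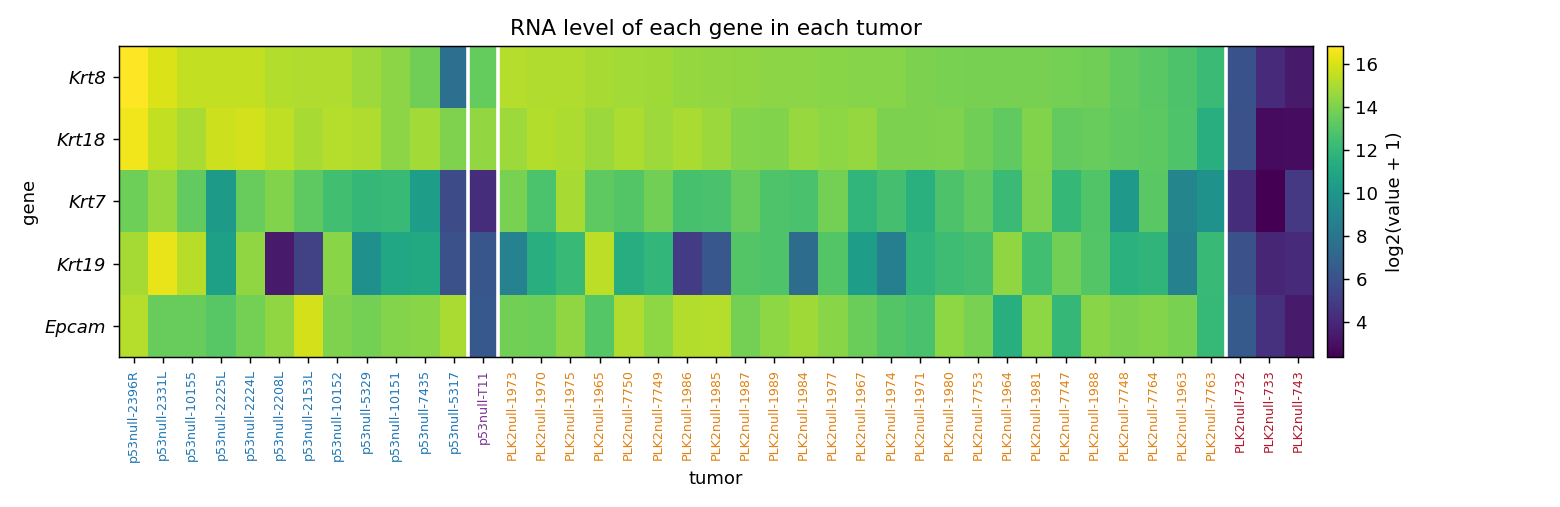
Log2(value + 1) of the 5 genes (vertical axis) in each of the 41 tumors (horizontal axis), grouped as other p53-/-, p53null-T11, other Plk2-/-; p53-/- and claudin-low Plk2-/-; p53-/- by white lines and ordered by Krt8 within a group. The 3 tumors at the right are dark in every row, p53null-T11 in 3 rows, and p53null-5317 in Krt8, Krt7 and Krt19 only.

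The p53-/- claudin-low tumor had another pattern. In p53null-T11, Krt8 was 11057 and Krt18 was 22508, which is 30.5% and 62.0% of the medians of the other 12 p53-/- tumors. Krt7 was 18.6, Krt19 was 73.6 and Epcam was 81.4, or 0.246%, 3.44% and 0.464% of those medians. Only Krt7 and Epcam lay below all 12, as did 17.6% of 16666 genes. Krt8 and Krt18 were thus 175 and 366 times the highest value among the Plk2-/-; p53-/- claudin-low tumors, while Krt7 and Epcam lay within the range of those 3 and Krt19 just above it. With 1 tumor there is no test of this difference. Of all keratin RNA per kilobase in p53null-T11, 98.9% came from the 4 simple keratins. Zeb1 was 2930 and Vim 108636 there, both above the other 12, and Cdh1 was 61.9. Pkp1, a desmosomal plaque gene, was 10345 and Dsp 1227, whereas Grhl2 was 6.92. Summed fibroblast markers were 225122, between the 21474 and 250713 that bound the other 12. Of the mesothelium list Msln was 2164 in p53null-T11, while Wt1 was 9.09 and Upk3b, Lrrn4 and Upk1b were each 0.

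Type II simple keratin RNA was below type I in the median tumor, with exceptions in both directions. Per kilobase, the sum of Krt7 and Krt8 over the sum of Krt18 and Krt19 had a median of 0.679 over the 37 other tumors. It ran from 0.412 (PLK2null-1965) to 1.22 (PLK2null-1973) in the 25 Plk2-/-; p53-/- tumors and from 0.00978 (p53null-5317) to 0.947 (p53null-2153L) in the 12 p53-/- tumors. It lay between 0.5 and 2 in 23 of 25 and 7 of 12, and with median coding transcript lengths in 23 of 25 and 10 of 12. Over all 22 type II and 27 type I keratins of the table, a count added after seeing the data, the median was 0.650. In the 3 claudin-low tumors of Plk2-/-; p53-/- genotype the ratio was 0.446, 0.722 and 0.793, within the range of the 25 although the level was lower by orders of magnitude. In p53null-T11 it was 0.360.

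One tumor broke the pairing. In p53null-5317, Krt8 was 198, from 511 reads, against 13421 to 116097 in the 11 other p53-/- tumors outside claudin-low. Krt7 was 53.1 against 1224 to 24483, so that both type II simple keratins were low. Krt18 was 16732, the lowest of its group but only 2.24-fold under the median of the 11, and Epcam was 32431, above that median of 17039. The ratio of type II to type I simple keratins was 0.00978 there. On chromosome 15, Krt18 lies on one side of Krt8, and on the other side Krt78 was 3.88, within the 2.11 to 3668 of the 11. Krt79, beyond Krt78, was 7156, above the 102 to 4435 of the 11, and Krt4, beyond Krt79, was 4.65 against 0 to 7965. Eif4b, beyond Krt18, was 15421 against 12221 to 23184. Krt79 was the leading type II keratin of this tumor, followed by Krt5 at 2590, Krt6a and Krt73, and Krt14 reached 18283. Over all keratins the ratio was 0.191, the lowest of the 37. Krt78, Krt79, Krt4, Eif4b and Krt73 were chosen after their values were seen. Krt8-ps, a processed pseudogene of Krt8 on chromosome 7, held 0.556 to 1.13% of the Krt8 value in the 37 tumors, so few Krt8 reads were assigned to the copy.

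**Figure D4:**
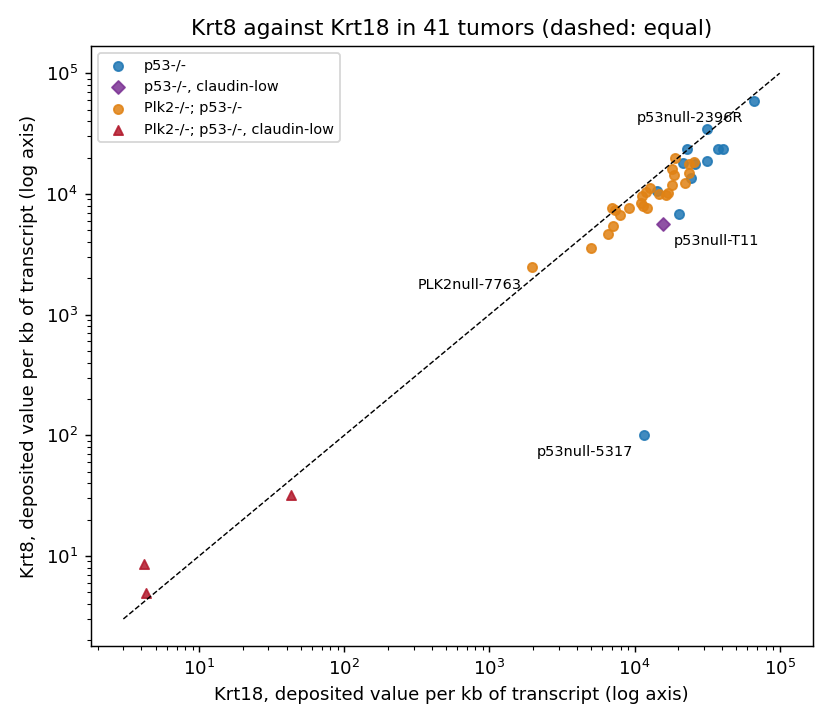
Krt8 against Krt18 in deposited units per kb of transcript, both on log axes, with 1 point per tumor and a dashed line where both are equal. Tumors follow the line over more than 3 orders of magnitude, p53null-5317 lies far below it and p53null-T11 lies with the non-claudin-low tumors.

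Across tumors Krt8 moved with Krt18, its filament partner, and with Krt7. For Krt8 and Krt18 over the 12 other p53-/- tumors, Pearson's r was 0.75 (permutation adjusted p = 0.00915 over 10 pairs) and Spearman's rho 0.81 (permutation adjusted p = 0.0200). Without the 2 tumors farthest from the median of Krt8, p53null-5317 and p53null-2396R, r was 0.68 and no longer passed (permutation adjusted p = 0.147) with 10 tumors left. Leaving out each tumor in turn, r ran from 0.74 to 0.82 and passed in 12 of 12. Over the 25 other Plk2-/-; p53-/- tumors r was 0.94, given as a description. Krt7 and Krt8 had r = 0.90 (permutation adjusted p = 0.00915) and rho = 0.71 (permutation adjusted p = 0.0559). Without p53null-5317 alone this r was 0.60 (permutation adjusted p = 0.245), and over the 25 tumors it was 0.73. Without p53null-7435 it just missed the threshold (permutation adjusted p = 0.0509). None of the other 8 pairs passed. Krt18 and Krt19, both type I, had r = 0.42 (permutation adjusted p = 0.283) and -0.26 over the 25. Krt19 and Epcam had r = -0.51 (permutation adjusted p = 0.214) and -0.49 over the 25, the lowest of the 10 values in both groups. That pair passed without p53null-2396R (r = -0.70, permutation adjusted p = 0.0475).

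Krt19 varied most. Its SD of log2 values was 2.50 over the 25 Plk2-/-; p53-/- and 4.30 over the 12 p53-/- tumors, wider than 97.7% and 99.9% of all genes with a mean of at least 10. The SD of Krt18 was 0.85 and 0.67, and that of Epcam 0.98 and 0.82. Krt19 ran from 29.98 (PLK2null-1986) through 3951 to 42189 (PLK2null-1965) in Plk2-/-; p53-/- tumors, and from 9.74 (p53null-2208L) through 2137 to 84670 (p53null-2331L) in p53-/- tumors. It lay below 100 in 2 of 25 and 3 of 12. Of these 5 tumors p53null-5317 was also low in Krt8 and Krt7, while Krt8 was 23157 to 36836 in the other 4. p53null-2208L, with 25 reads of Krt19, had 45016 of Krt18, and PLK2null-1986 and PLK2null-1985 had 32105 and 25899 beside Krt19 values of 29.98 and 77.01. p53null-2153L had a Krt19 value of 35.8 and the highest Epcam of all, 61588. PLK2null-1964 had the lowest Epcam of the other tumors, 2935, with a Krt19 of 21617, and PLK2null-7747 had 4148 and 13653. These were not the highest Krt19 values. In p53null-2331L, where Krt19 was highest, Epcam was 11276, and p53null-2396R had 38133 of Epcam beside 30006.5 of Krt19. The Krt19 share of type I simple keratin RNA thus ran from 0.0197% to 66.1%, with a median of 17.8%.

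**Figure D5:**
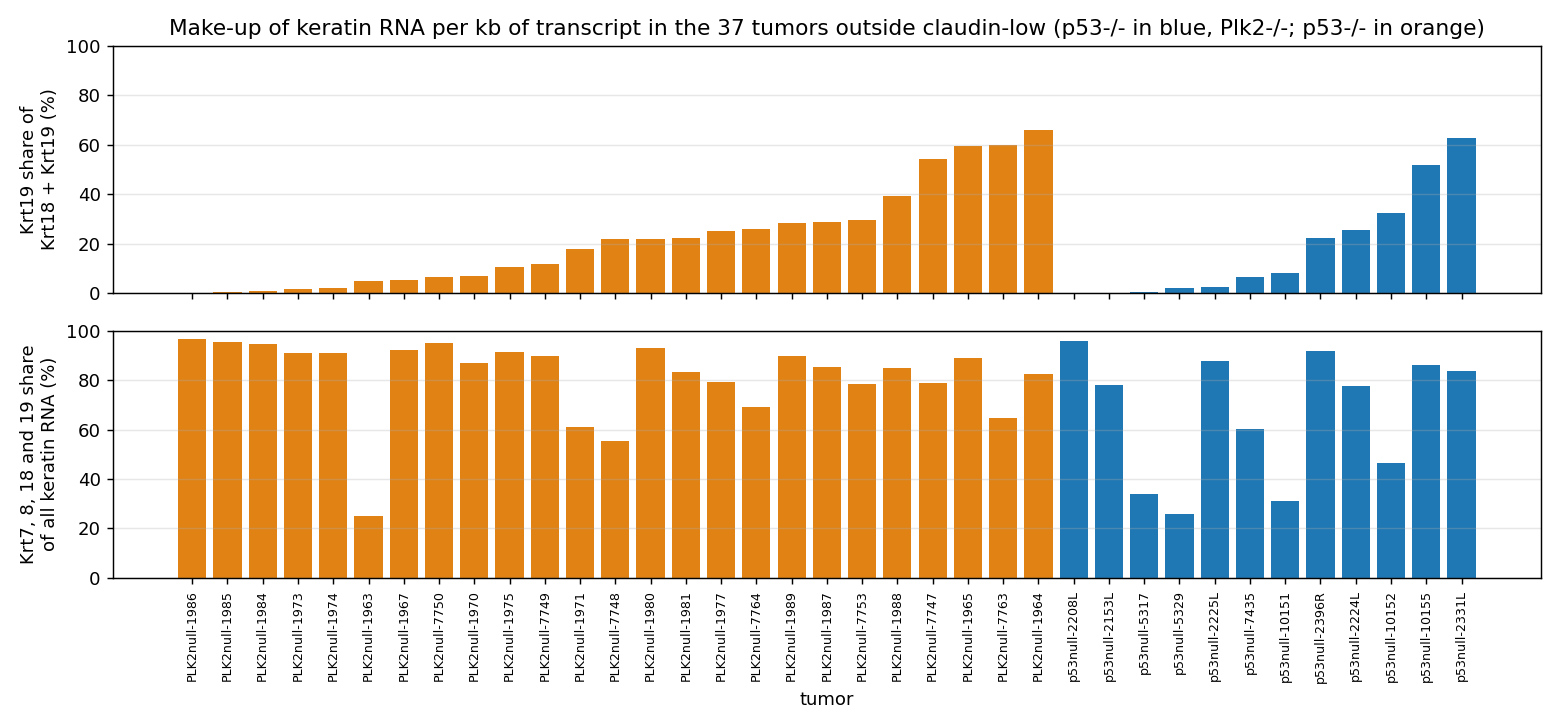
Share of Krt19 in Krt18 + Krt19 (above) and of the 4 simple keratins in all keratin RNA (below), both in percent per kb of transcript, as 1 bar per tumor for the 37 tumors outside claudin-low. The Krt19 share runs from under 0.1 to 66.1% within Plk2-/-; p53-/- tumors alone, and the simple share is lowest in PLK2null-1963 (25.1%) and p53null-5329 (25.9%).

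The 4 simple keratins made up a median of 84.8% of keratin RNA per kilobase in the 37 other tumors. PLK2null-1963, in which they made up 25.1%, had Krt5 at 36680 beside Krt8 at 7014, Krt18 at 7242 and the lowest Krt7 of the 25, 497. In p53null-5329 they made up 25.9%, with Krt14 at 80243. PLK2null-1975 had the highest Krt7 of all, 31205, with Krt8 at 34956, Krt18 at 33943 and Epcam at 21686, and the share was 91.3%. In p53null-2208L, the share was 96.0% and Krt7 was 17449. Krt7 made up a median of 11.9% of type II simple keratin RNA, and 34.9% in PLK2null-1981, where it was highest. With median coding transcript lengths these shares were 18.99% and 48.1%. PLK2null-7763 had the lowest Krt8 and Krt18 of the 25, 4837 and 2832, with Cdh1 at 875 and Zeb1 at 2344.

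Each gene had its own nearest companions. For each, the 5 genes most alike were taken by Pearson's r of deviations from the genotype mean over the 37 other tumors, among 14724 named genes, as a description. For Krt18 they were Pkp2 (0.82), a desmosomal plaque gene, Dennd2d (0.79), Slc37a1 (0.75), Cobl (0.74) and Smim22 (0.74). For Epcam they were Rab25 (0.81), an epithelial trafficking gene, Marveld2 (0.81), the tricellulin of tight junctions, Usp43 (0.79), Mta3 (0.79) and St14 (0.79), the matriptase gene. For Krt19 they were Scnn1b (0.85), a subunit of the epithelial sodium channel, Clca1 (0.82), Nek7 (0.79), Cab39l (0.78) and Cdo1 (0.71). For Krt7 they were Padi4 (0.82), Krt8 (0.82), Aldh3a2 (0.80), Krt8-ps (0.79) and Stambpl1 (0.78). For Krt8 they were Krt8-ps (0.97), which shares reads with it, Krt7 (0.82), Mlph (0.80), Plekhh1 (0.78) and Abhd14b (0.72). Without p53null-5317 the Krt8 values were 0.69 for Krt7, 0.57 for Mlph and 0.41 for Abhd14b, while Pkp2 stayed at 0.83 with Krt18 and Scnn1b at 0.86 with Krt19. No gene was on 2 of the lists apart from Krt8-ps.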

How the data were processed

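RNA of 41 bulk mammary tumors was measured, with 1 library each. Paired reads had been aligned to mm10 by the authors with STAR 2.7.6a and genes quantified with Salmon 1.4.0 (versions per the submitters' processing notes). Each tumor was scaled to its upper quartile, so that the deposited signal is linear and its nonzero values have an upper quartile of 1000. Only 77.9 to 80.5% of nonzero values lay within 0.1 of a whole number of reads, so no count model was used. Genotype came from the labels and the claudin-low class from the study's own assignment. Members, lists and comparisons were chosen with earlier results of these data known.

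Tests used log2(value + 1), a scale that understates changes of low genes, and were run in limma 3.58.1 (R 4.3.3), with no intensity trend. All genes with a mean of at least 10 entered the fit, with Benjamini-Hochberg adjustment, 2-sided, at a threshold of 0.05. Permutation tests drew 100000 resamples of tumors or of pairings. Transcript lengths were the longest coding transcripts of GENCODE vM21. Named genes were the 5 members, direct partners, listed genes where 5 or fewer passed, Plk2 and the 5 genes most alike. Named tumors were the highest and lowest of a group and those the study names, and others were chosen after their values were seen. The fit was tested on simulated data. Python 3.11.15, numpy 2.4.6, pandas 2.3.3, scipy 1.17.1 and matplotlib 3.10.9 were used. Alternatives were other pseudocounts, filters, scalings, sets of tumors and transcript lengths. No column was left unused. Some listed genes are not reported here by name.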

Additional observations from a re-analysis of the deposited data

How the results depend on the processing

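No paired analysis was possible because the genotypes share no replicate numbers in the labels. Apart from leaving out single tumors, 185 values were recomputed under another setting, and 154 of them counted as unchanged. A tested value had to keep both its direction and its side of the threshold, and a count had to stay within 1.5 times. A claudin-low difference or a keratin balance had to move by less than the SD over the other tumors. Over all 41 tumors the Krt18 difference passed with a pseudocount of 10 (-2.09) and after TMM rescaling (-2.35). It also passed with only 7 of the Plk2-/-; p53-/- tumors kept (-1.60) and without the claudin-low tumors (-1.15). Those 7 were PLK2null-7747, PLK2null-7748, PLK2null-7749, PLK2null-7750, PLK2null-7753, PLK2null-7763 and PLK2null-7764, a set fixed by name, whose passage the labels do not give. Krt7 turned to -0.0145 after TMM rescaling. In the fit with only 7 Plk2-/-; p53-/- tumors Krt19 turned to 1.53 and Epcam to 0.0458, and 970 genes were lower and 1972 higher. Krt19 turned to 0.28 without the claudin-low tumors. The claudin-low difference of Krt18 was -9.33 with a pseudocount of 10. The call for Krt7 and Krt8 was lost with Spearman's rho (0.71) and that for Krt8 and Krt18 without the 2 farthest tumors (0.68), where Krt7 and Epcam turned to 0.0141. Without the claudin-low tumors 42.4% of all genes tested were called. The lists then gave 2 of 3 simple keratins outside the 5 genes, 5 of 12 anchor genes, 5 of 15 Epcam partners and 4 of 14 regulators. With no filter 1 Epcam partner was called, and after TMM rescaling 1 regulator, 1 luminal regulator and 2 other intermediate filament genes. The cause was not tested.

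Leaving out each tumor in turn moved the difference over all 41 tumors from -0.45 (without p53null-T11) to 0.50 (without PLK2null-733) for Krt7, from -2.27 to -1.81 for Krt18, with 1 of 41 fits past the threshold (without PLK2null-1970), and from -0.67 to 0.41 for Krt19. Without claudin-low tumors, where these fits were added after seeing the data, it ran from -0.0800 to 0.72 for Krt7, from -1.09 (without p53null-5317) to -0.26 (without p53null-2396R) for Krt8, with 1 of 37 past the threshold (without p53null-5317), and from -0.41 to 0.76 for Krt19, while Krt18 passed in 37 of 37. The claudin-low difference ran from -10.35 to -9.06 for Krt8 and from -11.23 to -9.65 for Krt18, lowest without PLK2null-732. Correlations over the p53-/- tumors ran from 0.60 (without p53null-5317) to 0.96 for Krt7 and Krt8, with 10 of 12 past the threshold, from -0.27 to 0.26 for Krt7 and Epcam, from -0.43 to 0.0656 for Krt8 and Epcam, from -0.52 to 0.0335 for Krt18 and Epcam, and from -0.70 (past the threshold, without p53null-2396R) to -0.33 for Krt19 and Epcam. Depth limits the lowest values, which rest on 7 reads for Krt7 in PLK2null-733 and, outside the claudin-low tumors, on 25 reads for Krt19 in p53null-2208L.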

Other observations

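Keratins of stratified epithelium were prominent in single p53-/- tumors, chosen after their values were seen. In p53null-2331L, which had the highest Krt19 of all (84670), Krt4 was 7965 and Krt77 was 5456, and Krt8 was 67904. In p53null-5329, Krt6a was 40512, Krt6b was 5049, Krt16 was 7069 and Krt42 was 3524, beside Krt18 at 35222. In p53null-5317, Krt17 was 8423 beside Krt18 at 16732.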
